A study of Mus musculus with 924 samples.

Results

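The oxidative phosphorylation genes described here are the nuclear genes for subunits of respiratory complexes I, III and IV and of the ATP synthase (complex V). They were chosen by symbol, as the rows that start with Ndufa, Ndufb, Ndufc, Ndufs, Ndufv, Uqcr, Cox4i, Cox5, Cox6, Cox7, Cox8 or Atp5, leaving out pseudogenes, hyphenated names and the 7 Ndufaf assembly factors. This took 81 of the 25392 genes of the table: 38 of complex I, 8 of complex III, 18 of complex IV and 17 of complex V. Atp5s and Atp5sl enter by name only and are not core subunits of the ATP synthase.

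They were followed in nuclei of the mouse hippocampus, each sorted into its own well and sequenced with a modified Smart-seq2 (full-length) protocol. Pieces of dentate gyrus (DG), CA1 and CA2/3 had been fixed in RNAlater before the nuclei were isolated. Column names define 17 sets, which fall into 15 preparations by group and number. C57BL/6 mice of 12 weeks gave 4 DG preparations (305 nuclei), 2 of CA1 (99 nuclei) and 2 of CA2/3 (117 nuclei). Mice of 4 weeks gave 2 preparations (113 nuclei), of which the first is named DG and the second carries no region. Mice of 2 years gave 2 preparations (135 nuclei), of which the second is named DG and the first carries no region. The remaining preparations came from vGAT-Cre mice of 12 weeks (allele Slc32a1tm2(cre)Lowl), in which Cre is driven from the vesicular GABA transporter locus. These mice had received AAV1/2 with a Cre-dependent EYFP-KASH tag of the nuclear envelope, and fluorescent nuclei were sorted: 2 DG preparations (133 nuclei, called sorted DG below) and 1 CA preparation (22 nuclei, sorted CA). Nothing in the labels says whether preparations with different numbers came from different animals, so p-values measure the spread between preparations.

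Complex I passes electrons from NADH to ubiquinone, complex III from ubiquinol to cytochrome c, and complex IV from cytochrome c to oxygen, and the proton gradient they build drives ATP synthesis by complex V. Mitochondrial DNA encodes a few core subunits, while most subunits are made from nuclear genes such as those followed here. Neurons depend on this pathway for most of the ATP that restores ion gradients after synaptic activity and firing. A nucleus holds pre-mRNA and mRNA awaiting export, so the values below describe nuclear RNA and not the cytoplasmic pool.

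Promoters are shown for 4 members on which the results turn: Cox6a1 and Uqcr11, with the largest differences between sorted and unsorted DG, Ndufb2, which did not share that difference, and Atp5l, with the largest difference between 2 years and 12 weeks. They were picked after their values were seen. Each run holds the 250 bases before the gene's first listed start in RefSeq (build GRCm38.p6), 5′ to 3′ on the gene's strand. Capitals mark GCGCATGC (the core of the motif of NRF1, a factor known for binding promoters of respiratory chain genes), CCGGAAGT (an ETS motif) and TATAAA on either strand; overlapping matches run together.
Cox6a1: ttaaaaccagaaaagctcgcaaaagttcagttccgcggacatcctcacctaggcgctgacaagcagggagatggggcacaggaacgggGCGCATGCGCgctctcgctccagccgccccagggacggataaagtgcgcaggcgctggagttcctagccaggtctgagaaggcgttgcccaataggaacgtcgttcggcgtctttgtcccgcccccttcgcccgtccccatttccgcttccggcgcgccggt
Uqcr11: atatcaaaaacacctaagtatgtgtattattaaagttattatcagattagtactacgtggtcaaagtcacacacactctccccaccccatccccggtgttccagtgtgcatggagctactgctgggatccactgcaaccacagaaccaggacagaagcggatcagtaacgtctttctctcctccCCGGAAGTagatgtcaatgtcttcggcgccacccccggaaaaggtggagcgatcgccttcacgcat
Ndufb2: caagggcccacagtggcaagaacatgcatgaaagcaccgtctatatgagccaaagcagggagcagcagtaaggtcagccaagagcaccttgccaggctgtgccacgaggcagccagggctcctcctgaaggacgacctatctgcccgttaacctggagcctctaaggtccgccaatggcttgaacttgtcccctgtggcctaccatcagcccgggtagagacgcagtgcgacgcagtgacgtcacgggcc
Atp5l: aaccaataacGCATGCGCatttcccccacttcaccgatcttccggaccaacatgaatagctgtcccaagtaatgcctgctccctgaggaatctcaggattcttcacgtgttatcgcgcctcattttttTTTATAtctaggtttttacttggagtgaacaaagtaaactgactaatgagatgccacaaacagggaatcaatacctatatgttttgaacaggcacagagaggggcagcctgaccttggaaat

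The Cox6a1 run lies at chr5:115348959-115349208 (minus strand) and holds the NRF1 core on both strands, overlapping. The Uqcr11 run lies at chr10:80406822-80407071 (minus strand) and holds 1 ETS motif. The Ndufb2 run at chr6:39592315-39592564 (plus strand) holds none of the marked motifs. The Atp5l run at chr9:44920743-44920992 (minus strand) holds the NRF1 core and TATAAA, both on the opposite strand. RefSeq promoters were matched for 67 of the 81 members. The NRF1 core was found in 7 of the 67 (10.4%: Atp5g2, Atp5k, Atp5l, Cox6a1, Ndufa11, Ndufa6 and Ndufa8) and in 2.99% of 17492 promoters of protein-coding genes. The ETS motif was found in 3 (4.48%: Atp5h, Uqcr11 and Uqcrh) against 3.84%, TATAAA in 6 (8.96%) against 12.4%, CCAAT in 29 (43.3%) against 36.3%, and the YY1 motif AAGATGGC in 0 against 1.51%. The median GC content was 55.2% in both sets of promoters. A match is a string of letters and no measured site.

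Levels are means over nuclei of log2(value + 1), where the value is the deposited expression on the TPM scale taken off its natural log, a scale per transcript length on which genes can be compared. A gene counted as detected in a nucleus above a value of 1. In the median nucleus 39 of the 81 members were detected (5 to 72) beside 4882.5 genes of any kind. The median member was detected in 51.4% of nuclei and the median gene of the table in 6.60%. Of the members, 42 (51.9%) were detected in at least 50% of nuclei, against 13.7% of all genes. The median level was 6.43 for complex V, 5.15 for complex IV, 5.03 for complex III and 4.20 for complex I. The median of complex IV includes 7 isoforms detected in under 5% of nuclei, and over its other 11 members it was 6.86, above that of complex V. The members are short: their median transcript length was 31.8% of the 2025.75 bases over 19622 genes with a protein-coding transcript.

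Atp5b, the catalytic beta subunit of the ATP synthase (chr10:128083273-128090391, GRCm38), had the highest level, 11.22 ± 1.28 (SD, n = 15 preparations; 8.0 to 12.79), and was detected in 94.3% of nuclei. Ndufb2, an accessory subunit of the membrane arm of complex I (chr6:39592574-39603382), followed at 10.30 ± 0.45 (9.47 to 11.26) and had the smallest SD of the 73 members seen in at least 5% of nuclei, where the median SD was 1.57. Its annotated interval overlaps Braf, so reads of overlapping transcripts cannot be told apart. The same limit holds for other named members, among them Atp5b (Snord59a), Cox4i1 (Emc8), Atp5a1 (Haus1), Cox6c (Vps13b), Ndufs1 (Eef1b2), Ndufs3 (Kbtbd4) and Ndufa11 (Vmac). Cox4i1, the ATP-binding regulatory subunit of complex IV, reached 9.55 ± 2.03. Behind it came Atp5a1, the alpha subunit of the ATP synthase (8.28 ± 1.43), Cox6c (8.18 ± 2.00) and Cox8a (8.08 ± 2.72), both small membrane subunits of complex IV. Ndufa4, first assigned to complex I and now known as a subunit of complex IV, had the largest SD, 2.87, with 0.89 in the sorted CA preparation and 11.13 in 2-year preparation 2. The order of the first 2 genes did not hold in every preparation: Atp5b was below Ndufb2 in all 3 sorted ones. In 53 of the 73 members the lowest preparation was sorted CA, and in another 14 it was sorted DG 2. The highest was 2-year 2 in 34 members and CA2/3 1 in 25.

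**Figure D1:**
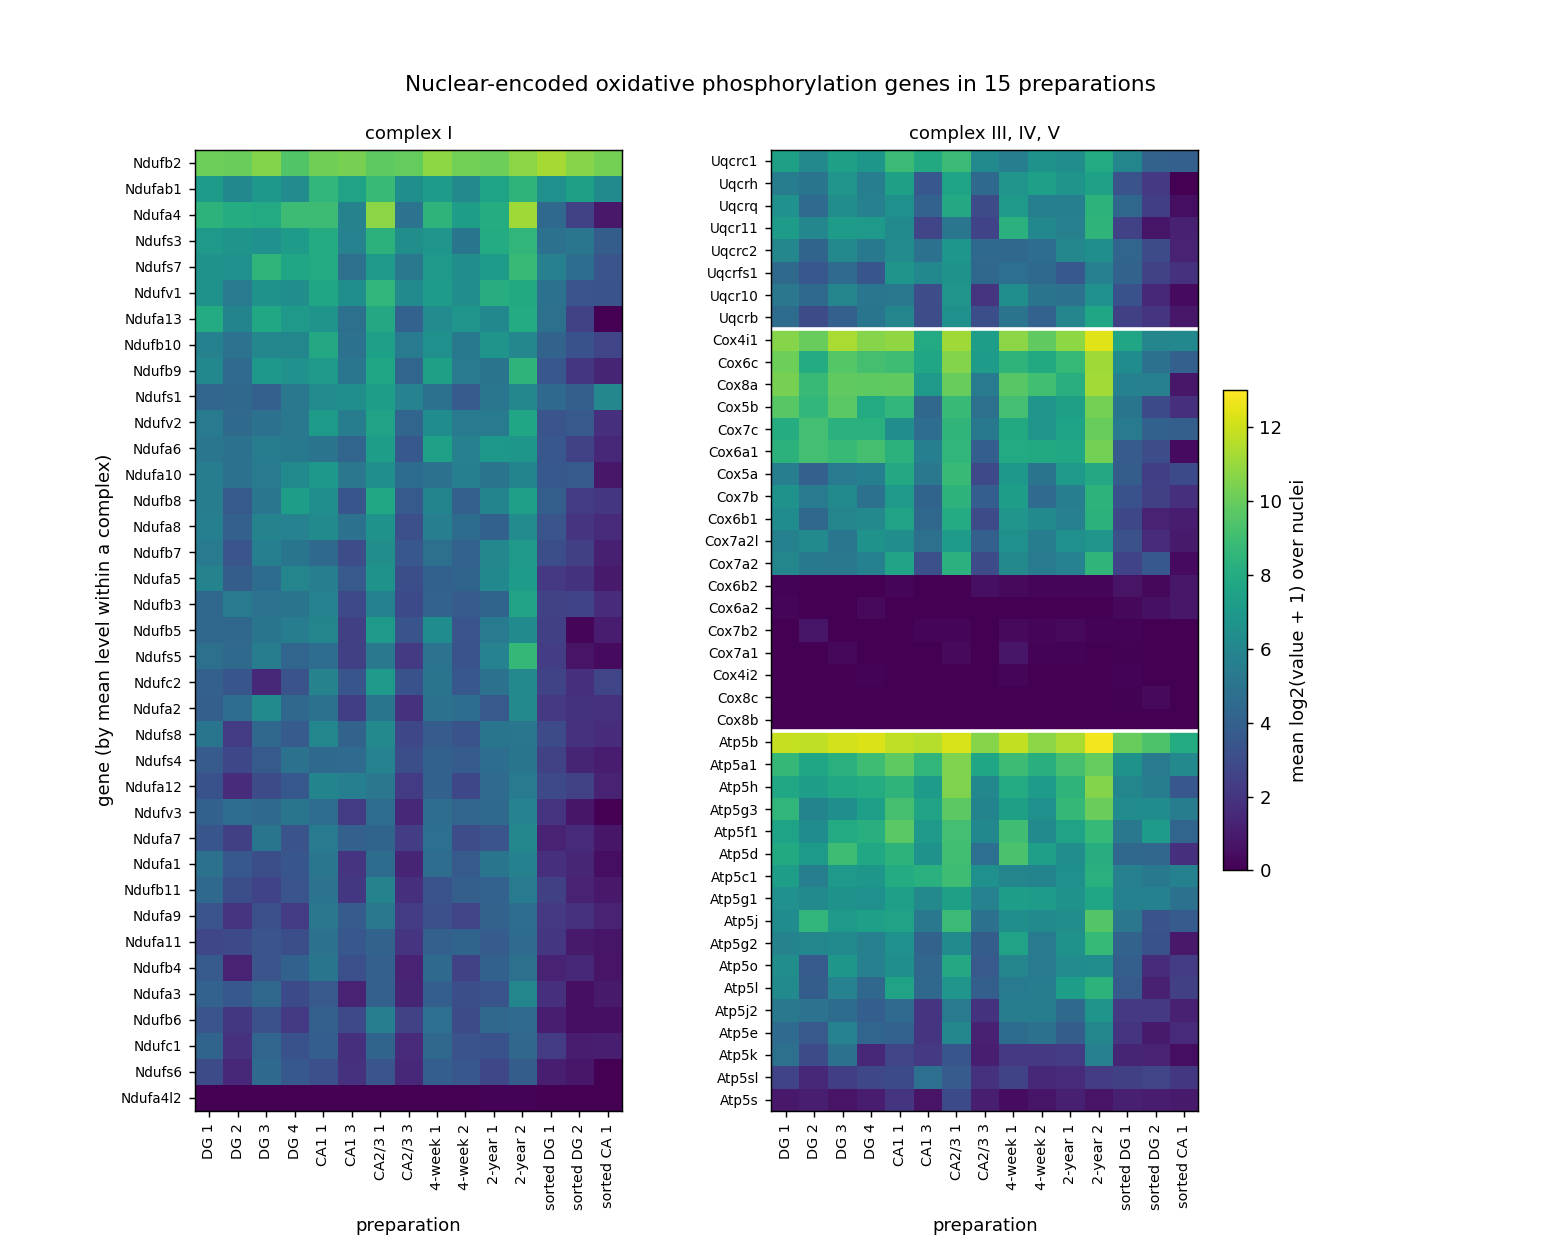
Level of 80 of the 81 members (rows, by complex and mean level) in each of the 15 preparations (columns), as the mean of log2(value + 1) over nuclei. Atp5b and Ndufb2 stay bright in every column, most other rows darken in the 3 sorted preparations and in CA1 3 and CA2/3 3, and 8 rows, 7 of them in complex IV, stay near 0.

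Of all members 8 were detected in under 5% of nuclei, and 7 of these are complex IV isoforms known from heart, muscle, lung or testis. Cox4i1 was detected in 85.2% of nuclei, while Cox4i2, its hypoxia-linked lung isoform, was detected in 3 nuclei of all. Cox6a1 was detected in 67.6% and Cox6a2, the heart and muscle isoform, in 12 nuclei. Of those 12, 10 were among the 110 GABAergic-like nuclei (9.09%, 95% Wilson interval 5.01 to 15.9), 1 among the 550 granule-like nuclei (0.182%, 0.0321 to 1.02), and 1 among the 16 microglia-like nuclei (6.25%, 1.11 to 28.3). The first 2 are classes with a median of 4793 and 4832.5 detected genes. The 10 nuclei came from 5 of the 13 preparations that held GABAergic-like nuclei: 2 of 11 in DG 1, 1 of 2 in DG 4, 2 of 18 in sorted CA, 3 of 37 in sorted DG 1 and 2 of 12 in sorted DG 2. Cox6a2 was not faint where it was found, with a median log2(value + 1) of 9.16 in those nuclei (7.58 to 11.32). Cox6b1 was detected in 53.1% of nuclei and Cox6b2, the testis isoform, in 20. Of these, 8 were among the 49 astrocyte-like nuclei (16.3%, 8.51 to 29.0), from 5 of 12 preparations, and 2 among the granule-like nuclei (0.364%, 0.0998 to 1.32). It was also detected in 2 of 17 oligodendrocyte precursor-like (11.8%, 3.29 to 34.3), 1 of 17 oligodendrocyte-like (5.88%, 1.05 to 27.0) and 1 of 16 microglia-like nuclei (6.25%, 1.11 to 28.3), whose intervals overlap that of the astrocyte-like nuclei. The astrocyte-like nuclei detected fewer genes (median 3442) than the granule-like nuclei.

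Cox7a2 and Cox7a2l, a factor of supercomplex assembly, were detected in 55.1% and 50.8% of nuclei, and Cox7a1, the muscle isoform, in 10 nuclei, of which 6 were granule-like and 4 pyramidal-like. Cox7b was detected in 57% and Cox7b2 in 12 nuclei, 10 granule-like and 2 pyramidal-like. Cox8a was detected in 76.3%, Cox8c in 2 nuclei and Cox8b in 0 of all nuclei, which allows a share of up to 0.325%. Ndufa4 was detected in 68.1% and Ndufa4l2 in 2 nuclei. The ATP synthase c ring, in contrast, drew on all 3 of its genes, which encode the same mature protein: Atp5g1 was detected in 85.1% of nuclei (level over all nuclei 6.59), Atp5g3 in 71.4% (7.59) and Atp5g2 in 56.5% (5.63). Atp5g1 was detected in 92.1% of pyramidal-like, 86.5% of granule-like and 86.4% of GABAergic-like nuclei. The glial-like classes differed in it: 94.1% of oligodendrocyte-like nuclei (16 of 17), 62.5% of microglia-like, 58.8% of oligodendrocyte precursor-like and 55.1% of astrocyte-like nuclei. Ndufb4, an accessory subunit of complex I, was detected in 34.3%. The intervals cover counting error only, and nuclei of a preparation are not replicates, so no test was made of these shares.

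**Figure D2:**
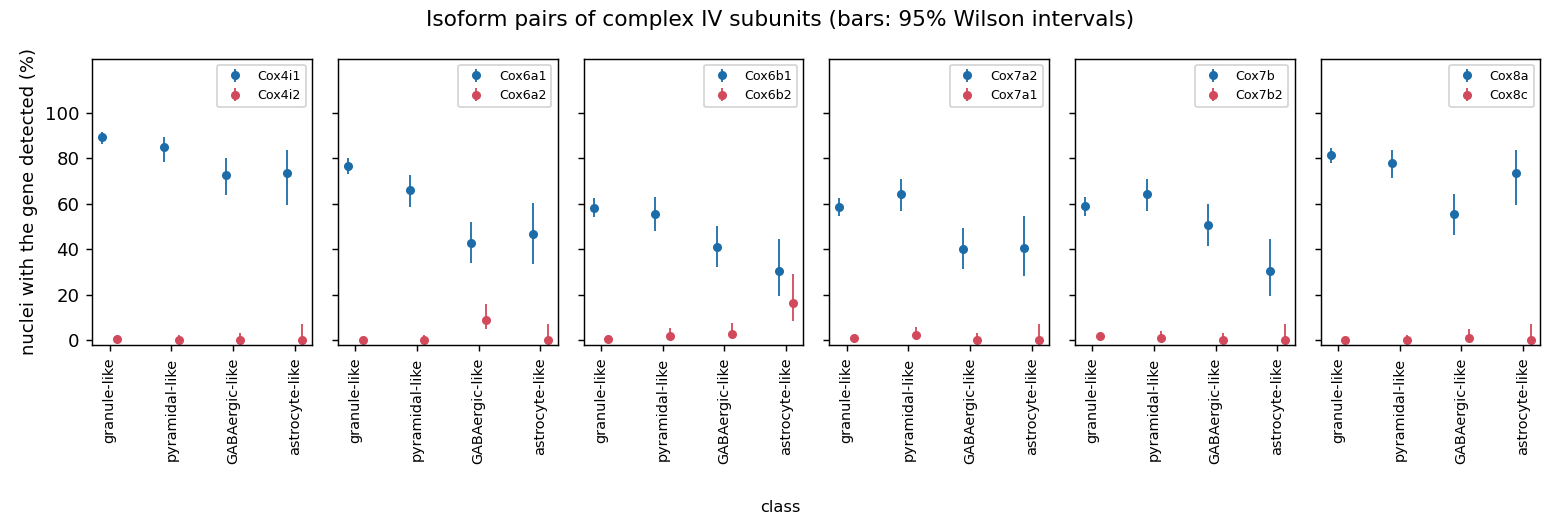
Percent of nuclei in which each gene of 6 complex IV isoform pairs was detected, in 4 classes of nuclei, with 95% Wilson intervals. The common isoform lies above 30% in every class shown, and the other isoform stays near 0 except for Cox6a2 in GABAergic-like nuclei (9.09%) and Cox6b2 in astrocyte-like nuclei (16.3%). The other glial-like classes, of 16 or 17 nuclei, are not drawn.

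The number of members seen in a nucleus differed between preparations. The median was 36.5 to 44 in the DG preparations, 23 and 27 in sorted DG, and 15 in sorted CA. CA1 preparations gave 51 (preparation 1) and 32.5 (preparation 3), CA2/3 preparations 53.5 and 29, 4-week preparations 46 and 37, and 2-year preparations 44 and 51. Members made up 1.58% to 2.11% of the total value in DG, 0.907% and 0.920% in sorted DG and 0.635% in sorted CA. Detected genes of all kinds did not follow the members everywhere. Their medians were 4725 to 4888 in DG and 4745 in sorted DG 1, which lay within that range, 4104 in sorted DG 2, 3732.5 in sorted CA, and 5757 and 6139.5 in preparations 1 of CA1 and CA2/3 against 5071.5 and 4834 in preparations 3. Within preparations the Spearman correlation across nuclei of detected members with detected genes, which share a library and its depth, was 0.56 to 0.90.

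**Figure D3:**
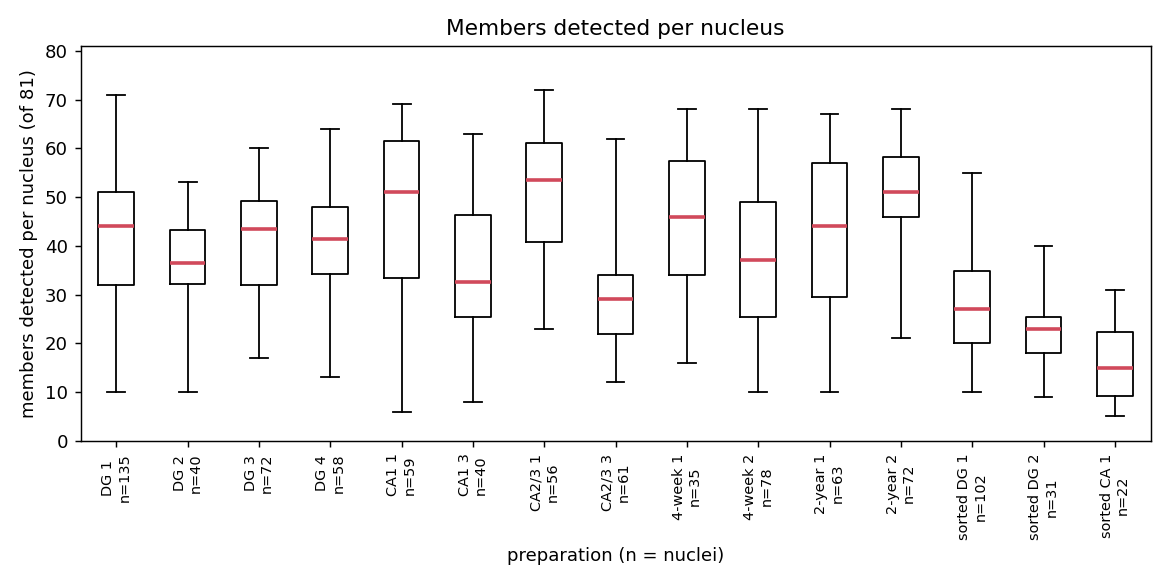
Number of the 81 members detected per nucleus in each preparation: red lines are medians, boxes the middle 50% of nuclei and whiskers the lowest and highest nucleus. The 3 sorted preparations have medians of 27, 23 and 15, below every other preparation, and preparations 1 and 3 of CA1 and of CA2/3 lie far apart.

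Nuclei were clustered without the members and named from marker genes as GABAergic-like (110 nuclei), granule-like (550), pyramidal-like (165), microglia-like (16), astrocyte-like (49) and, with 17 each, oligodendrocyte-like and oligodendrocyte precursor-like. The regional labels went with most markers, which also named the classes. In excitatory-like nuclei 18 of 18 granule neuron markers were higher in DG than in CA1 and than in CA2/3. Of 22 pyramidal markers 15 were lower and 1 higher in DG than in CA1, and 14 lower and 0 higher than in CA2/3. Excitatory-like pools joined granule-like and pyramidal-like nuclei and were mixed. DG 1 held 93 and 19 of these, CA1 1 held 9 and 34, and CA2/3 3 held 14 and 31. The sorted DG preparations did not hold GABAergic nuclei alone: preparation 1 had 45 granule-like, 37 GABAergic-like and 14 astrocyte-like of 102 nuclei, and preparation 2 had 14 granule-like and 12 GABAergic-like of 31. In sorted CA 18 of 22 were GABAergic-like. Tests below used limma on preparation means over every gene detected in 20% or more of a pool's nuclei, with Benjamini-Hochberg adjusted p under 0.05 as the threshold, and differences are on the log2(value + 1) scale, which understates changes of low genes. Between 72 and 74 of the 81 members passed the filter in each of the 9 comparisons planned; the rest, mainly the 8 rarely detected ones, were given no test.

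Most members had lower levels in sorted than in unsorted DG. Of 72 members tested, 58 were lower and 0 higher: 29 of 37 of complex I, 7 of 8 of complex III, 11 of 11 of complex IV and 11 of 16 of complex V. Over all 10374 genes tested, 21.6% were lower. The median difference was -2.18 for the members and -0.30 for all genes. In 55 of the 72 both sorted preparations lay below all 4 unsorted ones, as for 31.0% of all genes.

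Cox6a1, the ubiquitous isoform of subunit 6a of complex IV (chr5:115345642-115348981), had levels of 8.36, 9.09, 8.78 and 9.18 in DG 1 to 4 and 3.74 and 3.10 in sorted DG 1 and 2. The groups lay far apart, with a difference of -5.43 (SE 0.52, limma adjusted p 3.34e-07). Uqcr11, the smallest subunit of complex III (chr10:80402997-80406830), had 7.21, 6.00, 7.18 and 7.0 against 2.50 and 0.71 (-5.24, SE 0.60, limma adjusted p 2.13e-06). Cox5b, the zinc-binding subunit of complex IV (chr1:36691449-36693681), had 9.63, 8.59, 9.68 and 7.95 against 5.05 and 2.92, a difference of -4.98 (SE 0.62). All 3 were low in both sorted preparations, and Uqcr11 and Cox5b were lower in the second. Ndufa4 (chr6:11900292-11907497) had 8.41, 8.07, 7.93 and 8.93 against 4.46 and 2.50 (-4.86, SE 0.58). Cox8a (chr19:7215153-7217616) had 10.34, 8.74, 9.84 and 9.75 against 5.69 and 5.64 (-4.0, SE 0.49). Cox4i1 (chr8:120668222-120674207) had 10.63, 9.99, 11.35 and 10.64 against 7.63 and 5.93 (-3.88, SE 0.48). None of these 6 genes overlapped between the groups. Of these genes, Cox6a1 and Uqcr11 are the first 2 whose promoters are printed above.

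Atp5b, the most abundant member, fell less, from 11.87, 11.75, 12.10 and 12.31 in DG 1 to 4 to 9.98 and 9.36 (-2.34, SE 0.31). Ndufb2 went the other way without passing the threshold: 10.15, 10.02, 10.57 and 9.47 in DG 1 to 4 against 11.26 and 10.65 in sorted DG (0.90, SE 0.37, limma adjusted p 0.0713). It was the only tested member for which both sorted preparations lay above all unsorted ones. Members that also missed the threshold included Atp5c1, Atp5f1, Atp5g1, Atp5g3, Atp5sl, Ndufa9, Ndufa12, Ndufab1, Ndufc2, Ndufs1, Ndufs8 and Uqcrfs1, with differences of -1.43 (Ndufs8) to 0.32 (Ndufab1). The 58 differences that passed ran from -5.43 to -1.45.

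Other lists of mitochondrial and housekeeping genes differed in their counts, which stand beside the 21.6% of all genes that were lower. Glycolysis genes were lower in 10 and higher in 1 of 16 (median -2.08), with Pgk1 (-3.87), Tpi1 (-3.84), Eno1 (-3.46) and Aldoa (-2.83) the furthest. Cytosolic ribosomal protein genes, which like the members are short and highly expressed, were lower in 63 of 80 (median -2.35), and mitochondrial ribosomal protein genes in 21 of 67 (median -1.03). Of the tricarboxylic acid (TCA) cycle 2 of 15 fell (median -1.07), Mdh2 (-3.35) and Suclg1 (-2.65), and of complex II 1 of 4, Sdhd (-2.43). Of 5 subunits outside the name rule Usmg5 (-4.31) and 2010107E04Rik (-3.26) fell. Of assembly factors, those that passed were Ndufaf3 (-1.97) and Ecsit (-1.30) of 12 for complex I, and Uqcc2 (-2.95), Cox14 (-2.46) and Coa3 (-2.37) down with Cox16 (2.54) up of 22 for the other complexes. The medians of these 2 lists were -0.0077 and -0.050. None of 12 regulators of mitochondrial genes passed in limma, and 0 had an unadjusted p under 0.05.

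The sorted mice differed from the others in strain, virus and gate at once, which cannot be told apart. The makeup of the nuclei differed too: 12 of 15 tested GABAergic markers were higher in sorted DG (summed level 52.0 to 63.4 against 17 to 27.4), 18 of 18 granule markers lower (57.5 to 74.7 against 105.2 to 140.7) and 4 of 9 astrocyte markers higher (20.4 to 40.1 against 21.4 to 28.3). No marker of these 3 lists was at 0 in every nucleus of either group, and their part in the result over all nuclei was not tested. Members were lower within classes too: in granule-like nuclei alone 47 of 72 fell, median -2.49, against 15.6% of all genes. In GABAergic-like nuclei alone, compared after seeing the data with 11 and 5 unsorted against 37 and 12 sorted nuclei, 6 of 73 fell against 0.539% of all genes: Ndufa4 (-7.03, SE 1.37), Cox5a (-6.26), Cox5b (-6.00), Atp5d (-5.93), Cox7c (-5.69) and Ndufv1 (-5.56). At an unadjusted p under 0.05, 41 of the 73 were lower there and 7.19% of all genes, with a member median of -2.89. Ndufa4 in these GABAergic-like nuclei stood at 10.98 and 11.04 in unsorted DG 1 and 3 and at 5.41 and 2.55 in sorted DG 1 and 2. The test of whether the difference itself varied between GABAergic-like and granule-like nuclei passed for 0 of 73 members and for 0.00789% of all genes. At an unadjusted p under 0.05 it held for 10 of the 73 and 6.35% of all genes. Its SEs were 0.86 (Ndufb2) to 1.67 (Ndufb9), so smaller variation between the classes was not detectable.

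The granule-like nuclei were not of a single kind. A cluster numbered 0, with a median of 23 members and 3960 genes detected, held 35 of 45 granule-like nuclei of sorted DG 1 and 14 of 14 of sorted DG 2. In unsorted DG 1 to 4 it held 13 of 93, 6 of 40, 5 of 64 and 6 of 51. Unsorted nuclei in this cluster were also low in members: in DG 1 to 4, 69 of 72, 60 of 70, 61 of 71 and 61 of 71 members lay below the other granule-like nuclei of the same preparation, with median differences of -3.21, -2.84, -3.25 and -2.54. They also detected fewer genes of any kind (median 3629, 4703.5, 4227 and 3911 against 4724, 5085, 4778 and 4913). No share of all genes is given beside these counts, so they are not read as a result about the members. When sorted and unsorted preparations were compared within cluster 0, a comparison added after seeing the data, 0 of 70 members and 0.0172% of all genes passed in limma, 1 member had an unadjusted p under 0.05, and the member median was -0.26 against -0.07 for all genes. Cox6a1 then had 3.58, 5.43, 3.71 and 7.91 in unsorted DG 1 to 4 against 4.88 and 2.10 (-1.67, SE 1.43), and Ndufa4 a difference of 0.03 (SE 1.37). These pools held as few as 5 nuclei and their SEs (1.23 to 1.47 for the 6 genes named above) were larger, so smaller differences were not detectable. Adjusted for detected genes as a covariate over all nuclei, 19 members were lower, against 5.69% of all genes. The count over all nuclei also fell without sorted DG preparation 2, which left 1 sorted preparation.

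**Figure D4:**
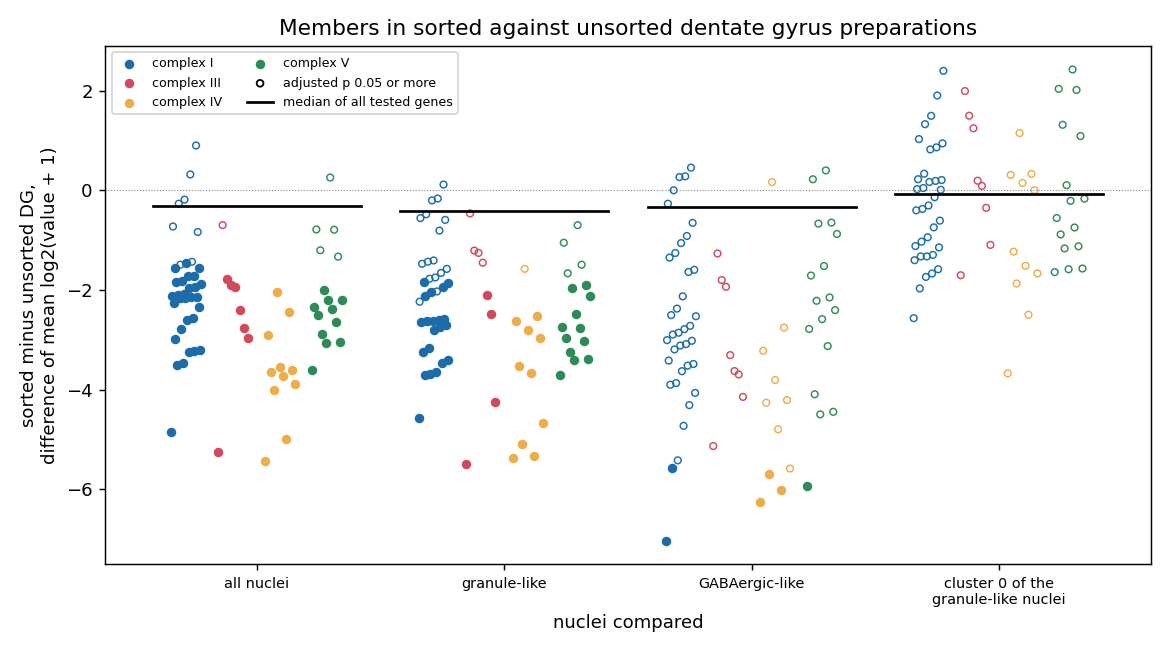
Difference of each tested member between sorted and unsorted DG preparations, on the log2(value + 1) scale, for 4 selections of nuclei; filled points passed adjusted p 0.05 and black bars are the median of all tested genes. Nearly all points lie below the bar in the first 3 columns, and they spread around it in cluster 0, where none is filled.

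Some members had lower levels in glial-like than in neuronal-like nuclei of the same preparation. In 8 preparations with at least 5 nuclei of each, 23 of 74 members were lower, against 22.3% of all genes. Those lower were 10 of 37 tested of complex I, 3 of 8 of complex III, 6 of 12 of complex IV and 4 of 17 of complex V. The share of members was near that of all genes, but their median difference was -1.32 against -0.49. This order did not hold under every setting: with the log2 of the mean value the medians were -0.42 for members and -0.78 for all genes, and in nuclei with at least 4000 genes 0.70 and 0.59. Glial-like pools had a median of 2999 to 4502 detected genes and neuronal-like pools 4745 to 6280. With detected genes as a covariate 0 members and 0.717% of all genes passed in limma, and the member median was 0.31. After quantile normalization 2 members were lower, with a median of -0.47.

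Uqcrc1, a core protein of complex III (chr9:108936633-108949623), showed the largest difference, from 7.74 ± 1.38 in neuronal-like to 4.42 ± 1.99 (SD, n = 8) in glial-like pools (-3.32, SE 0.66, limma adjusted p 0.000303). It was lower in glia in all 8 preparations, with glial levels of 0.00 in 2-year 1, 4.82 in 4-week 2, 4.38 and 5.80 in CA1 1 and 3, 6.40 and 5.75 in CA2/3 1 and 3, 3.88 in DG 1 and 4.33 in sorted DG 1. The matching neuronal levels were 7.0, 6.94, 9.99, 8.43, 9.27, 6.22, 7.75 and 6.34. Ndufs3, a core subunit of complex I (chr2:90894634-90904827), was also lower in 8 of 8 (7.11 ± 1.44 to 4.60 ± 1.87, -2.51, SE 0.64). Atp5a1 (-2.29) and Cox7a2 (-2.22) were lower in 7 of 8, and Ndufs7 (-2.21), an iron-sulfur subunit of complex I, in 6 of 8. In nuclei with at least 4000 genes, where 0 members passed in limma and 8 were higher at an unadjusted p under 0.05, Uqcrc1 (1.40), Atp5a1 (2.40), Cox7a2 (1.97) and Ndufs7 (0.89) turned to the other direction. Cox6b2 stood at 0.94 ± 0.93 in glial-like and 0.12 ± 0.22 in neuronal-like pools. It passed the filter on detection only through glial-like pools (25% of nuclei in sorted DG 1, 20% in 2-year 1, at most 5.77% in a neuronal-like pool), so no test of it is given. Without 2-year 1 or CA1 1 the count of members lower was 11 and 13, with no share of all genes given for these fits.

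The size differed between preparations: the median member difference was -3.51 in 2-year 1, -3.46 in CA1 1, -1.61 in 4-week 2 and -1.0 in DG 1, and it lay between -0.61 and 0.15 in the other 4. Counts in related lists stand beside the 22.3% of all genes that were lower. Cytochrome c, Cycs (-4.08), the ATP synthase inhibitor Atpif1 (-3.17) and Cyc1 (-2.16) were lower of 5 other subunits. Of 16 TCA cycle genes 4 fell, Pdhb (-2.69), Idh3a (-2.66), Idh3b (-2.38) and Idh3g (-2.37). Complex II had 2 of 4 lower, Sdhd (-1.61) and Sdhc (-1.28). Glycolysis had 9 of 16 lower, Eno2 (-4.41), the neuronal enolase, furthest, and 1 higher, Aldoc (6.11), which is also a marker of astrocytes used to name the class. Of 16 regulators Polrmt (-1.49), Ppargc1b (-1.46) and Esrrg (-1.03) were lower and Ppara (1.19) higher. Mitochondrial ribosomal genes were lower in 13 of 75 and cytosolic ones in 11 of 83, complex I assembly factors in 4 of 13 and those of the other complexes in 6 of 27.

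Few members passed the threshold between GABAergic-like and excitatory-like nuclei. In 6 preparations 2 of 73 were higher in GABAergic-like nuclei and 0 lower, against 5.24% of all genes higher, and the median difference was 0.06 against 0.07. Ndufb2 stood at 9.51, 9.85, 9.97, 10.55, 10.78 and 9.54 in excitatory-like nuclei of CA2/3 1, CA2/3 3, DG 1, DG 3, sorted DG 1 and sorted DG 2, and at 11.34, 10.83, 11.31, 12.60, 11.80 and 12.12 in the GABAergic-like nuclei of the same preparations. It was higher in 6 of 6, and the 2 groups did not overlap (1.64, SE 0.33, limma adjusted p 0.000548). Within GABAergic-like nuclei, sorted and unsorted DG differed in Ndufb2 by 0.0036 (SE 0.70), and within granule-like nuclei by -0.16 (SE 0.51), both short of the threshold. Uqcrh, the hinge protein of complex III (chr4:116066965-116075071), went from 7.31, 4.58, 5.17, 6.42, 2.47 and 0.59 to 8.13, 3.68, 8.24, 9.36, 4.62 and 4.69. It was higher in 5 of 6, with overlap between the groups (2.03, SE 0.69, limma adjusted p 0.0478), and lost the call without DG 1, DG 3, sorted DG 1 or sorted DG 2. Outside the members Sdha, the flavoprotein of complex II (2.13), and the assembly factor Ndufaf7 (2.47) were higher, and of 16 glycolysis genes Ldhb (2.09) and Pfkp (1.95) were higher and Pfkl (-2.45) lower. None of 15 TCA cycle genes and none of 15 regulators passed in limma, nor did any have an unadjusted p under 0.05. After quantile normalization 2 members were higher and 1 lower. Median member differences by preparation ran from -1.01 in DG 3 to 1.73 in DG 1.

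Between regions, few members passed the threshold in excitatory-like nuclei. DG was lower than CA1 in 2 of 73 members and higher in 0, against 9.43% of all genes lower, and lower than CA2/3 in 1, against 5.87%. Ndufs1, the largest core subunit of complex I, which carries iron-sulfur clusters (chr1:63143596-63176833), was lower in both: 4.26, 4.39, 3.97 and 4.93 in DG 1 to 4, 7.15 and 6.47 in CA1 1 and 3, and 6.74 and 6.14 in CA2/3 1 and 3. DG overlapped with neither region (-2.42, SE 0.59, limma adjusted p 0.0183 for CA1; -2.05, SE 0.59, limma adjusted p 0.0493 for CA2/3; both share the DG preparations). Ndufa12, an accessory subunit of the peripheral arm (chr10:94198720-94221443), had 2.80, 1.64, 2.89 and 3.33 in DG and 6.91 and 5.14 in CA1 (-3.36, SE 0.77, limma adjusted p 0.0136). All DG preparations lay below both of CA1 in 9 of 73 members and in 3639 of 11324 genes of any kind. For CA2/3 this held in 3 members and 3202 genes. CA1 and CA2/3 differed in 0 of 73 members in limma, with 1 at an unadjusted p under 0.05, against 0.168% and 7.93% of all genes. Median differences were -0.36 for DG minus CA1 (all genes -0.51), -0.04 for DG minus CA2/3 (-0.42) and 0.44 for CA1 minus CA2/3 (0.10). After quantile normalization 3 members were higher and 2 lower in DG than in CA1 (median 0.026), and 2 higher and 0 lower than in CA2/3 (0.29).

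Some energy genes outside the members were lower in DG than in CA1, where 9.43% of all genes were. Of 15 TCA cycle genes 4 passed, Sucla2 (-3.33), Dld (-2.63), Fh1 (-1.88) and Idh3b (-1.83), and of 16 glycolysis genes 3, Pfkp (-3.73), Ldha (-3.12) and Aldoc (-2.40). Lower too were Foxred1 (-2.01) of 13 complex I assembly factors, Cox11 (-2.52) and the mitochondrial mRNA-binding protein Lrpprc (-2.41) of 25 assembly factors of the other complexes, and 3 of 74 mitochondrial ribosomal genes. Of complex II 0 of 4 passed in limma, with 2 lower at an unadjusted p under 0.05. Against CA2/3, where 5.87% of all genes were lower, Pfkp (-3.45) of 16 glycolysis genes, Lrpprc (-2.84) of 25 and Foxred1 (-2.26) of 13 assembly factors, Esrrg (-1.40) of 15 regulators and 2 of 74 mitochondrial ribosomal genes were lower. Of the TCA cycle 0 of 15 and of complex II 0 of 4 passed there in limma, with 4 and 1 lower at an unadjusted p under 0.05.

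The 2 preparations of each CA region lay far apart. In CA1, 72 of 73 members were higher in preparation 1 than in 3 (median 2.57), and in CA2/3 likewise 72 of 73 (2.87), while DG 1 and 3 split 37 to 36 (0.00). No count over all genes stands beside these pairs, so they are not read as a trait of the members. Excitatory-like nuclei of CA preparations 1 detected a median of 6121 and 6396 genes and those of preparations 3, 4977 and 4943. The regional counts moved with this: without CA1 1, DG was higher than CA1 in 3 members and lower in 0, and without CA1 3 lower in 7. Without CA2/3 1, DG was higher than CA2/3 in 3 members, and without CA2/3 3 lower in 8. Removing DG 1 or DG 3 left 1 member lower than in CA1, removing DG 2 left 0, and removing any single DG preparation left 0 lower than in CA2/3. Leaving out a CA preparation left 1 of its region. The share of all genes that passed in these fits is not given, so their counts are not read as a result about the members. With detected genes as a covariate 36 members were higher in DG than in CA1, against 9.30% of all genes, and 39 higher than in CA2/3, against 9.61%.

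With age, few members passed the threshold in granule-like nuclei. From 4 to 12 weeks 4 of 72 members (Ndufa6, Ndufc2, Ndufa11 and Uqcrh) fell and 0 rose, against 6.02% of all genes lower, with a median of -0.58 against -0.10. From 12 weeks to 2 years 2 (Ndufc2 and Atp5l) rose and 0 fell, against 0.179% of all genes higher, and the median was 1.08 against 0.15. In that comparison 68 of 72 differences were above 0, both 2-year preparations lay above all 4 of 12 weeks in 30 members (41.7%, all genes 16.1%), and 28 were higher at an unadjusted p under 0.05 (all genes 8.27%). Without 2-year 2 these 28 became 11 and the median 0.54, and with the log2 of the mean value they became 7 and the median 0.24. Between 4 weeks and 2 years 0 of 72 passed in limma (2.41% of all genes), with 10 higher at an unadjusted p under 0.05 (all genes 7.69%). The comparisons share the 12-week or 4-week preparations and a fit.

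Ndufc2, a membrane-arm subunit of complex I (chr7:97400003-97407802), had 5.87 and 3.82 at 4 weeks, 3.00, 3.49, 1.26 and 3.37 at 12 weeks and 5.53 and 6.03 at 2 years. The 12-week preparations were lowest in it on both sides (-2.06, SE 0.67, limma adjusted p 0.0423, from 4 to 12 weeks; 3.00, SE 0.67, limma adjusted p 0.0448, from 12 weeks to 2 years). Atp5l, subunit g of the ATP synthase (chr9:44912557-44920742), had 6.56 and 5.83 at 4 weeks, 6.46, 3.85, 6.00 and 4.37 at 12 weeks and 8.07 and 8.61 at 2 years. Its 2-year values lay above all others (3.17 over 12 weeks, SE 0.69, limma adjusted p 0.0448). Ndufa6, a complex I subunit of the LYR-motif family (chr15:82350140-82354322), had 8.67 and 6.01 at 4 weeks, 4.56, 4.90, 5.74 and 5.16 at 12 weeks and 7.25 and 6.92 at 2 years (-2.26 from 4 to 12 weeks, SE 0.67, limma adjusted p 0.0264). Uqcrh had 8.0 and 7.11, then 4.92, 5.03, 6.52 and 5.48, then 7.43 and 7.60 (-2.07, SE 0.63, limma adjusted p 0.0299). Ndufa11 (chr17:56717767-56722141) had 4.93 and 4.57, then 2.56, 2.87, 3.62 and 2.81, then 4.16 and 4.49 (-1.78, SE 0.57, limma adjusted p 0.0404). In the last 3 genes all 12-week preparations lay below those of both other ages. Against 4 weeks alone, all 12-week preparations lay lower in 10 of 72 members and in 1912 of 10609 genes of any kind.

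Of 15 glycolysis genes 5 fell from 4 to 12 weeks, among them Pfkp (-3.54), Ldha (-2.02), Pfkm (-1.80) and Pgam1 (-1.76), with 7 of 82 cytosolic and 3 of 74 mitochondrial ribosomal genes. From 12 weeks to 2 years Rpl36al (2.83) alone of these lists passed in limma, while 42 of 82 cytosolic ribosomal, 13 of 74 mitochondrial ribosomal, 6 of 15 glycolysis and 4 of 15 TCA cycle genes were higher at an unadjusted p under 0.05. Markers moved with age as well: 9 of 18 granule markers were higher at 12 than at 4 weeks (summed level 133.8 to 149.5 against 98.1 to 112.2) and 2 of 5 tested progenitor markers lower (7.8 to 9.9 against 14.3 to 16.5); of these, Neurog2 was at 0 in every granule-like nucleus of 12 weeks. Within these granule-like nuclei 3 of 6 GABAergic markers (17.02 to 17.86 against 15.63 to 16.97) and 3 of 8 pyramidal markers (30.7 to 33.2 against 28.0 to 29.7) were also higher at 12 weeks, and of 6 astrocyte markers 1 was higher and 1 lower (21.4 to 23.4 against 26.8 to 27.3). At 2 years the summed astrocyte (25.2 to 27.7), GABAergic (18.99 to 21.71) and progenitor levels (10.1 to 10.5) lay above the 12-week ranges. No tested marker of these lists passed in limma between 12 weeks and 2 years. In the 2-year granule-like nuclei 8 of 20 GABAergic, 3 of 9 progenitor and 1 of 14 astrocyte markers were at 0 in every nucleus. At 12 weeks 1 GABAergic, 1 progenitor and 0 astrocyte markers were. The part of these markers in the age results was not tested. The age preparations also differed within a group: 4-week 1 was above 4-week 2 in 68 of 72 members (median 1.15) and 2-year 2 above 2-year 1 in 66 of 72 (0.99). Their granule-like nuclei also differed in detected genes of any kind (median 5409 against 4936 and 5618 against 4774.5). No count over all genes stands beside these pairs either.

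With detected genes as a covariate 2 members were higher and 0 lower at 12 than at 4 weeks, against 9.19% of all genes higher. The age calls rested on few libraries. No share of all genes stands beside the counts with a preparation left out, so they are not read as a result about the members. Leaving out a 4-week or 2-year preparation also left 1 of that age. Leaving out 4-week 1, DG 1 or DG 4 left 0 members lower at 12 weeks than at 4, leaving out DG 2 left 1, and leaving out 4-week 2 gave 11. For 2 years against 12 weeks the count was 0 without either 2-year preparation or without DG 2, DG 3 or DG 4, 1 without DG 1 and 4 without 4-week 1. A granule-like cluster numbered 5 was led by Penk, Col6a1, Necab3 and Rgs4. It was named granule-like on a marker score of 0.093, with 0 of the granule markers among its top 10 genes. At resolution 0.6 a cluster of 117 nuclei led by the same genes scored -0.047 and stayed unnamed. The comparisons with 4 weeks could not be run there. Cluster 5 held 23 of 27 and 56 of 66 granule-like nuclei of 4 weeks. Without it 1 preparation of 10 nuclei remained at 4 weeks, and the direction turned: 32 members were higher and 1 lower at 12 weeks, against 33.3% of all genes higher, with a median of 1.66.

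**Figure D5:**
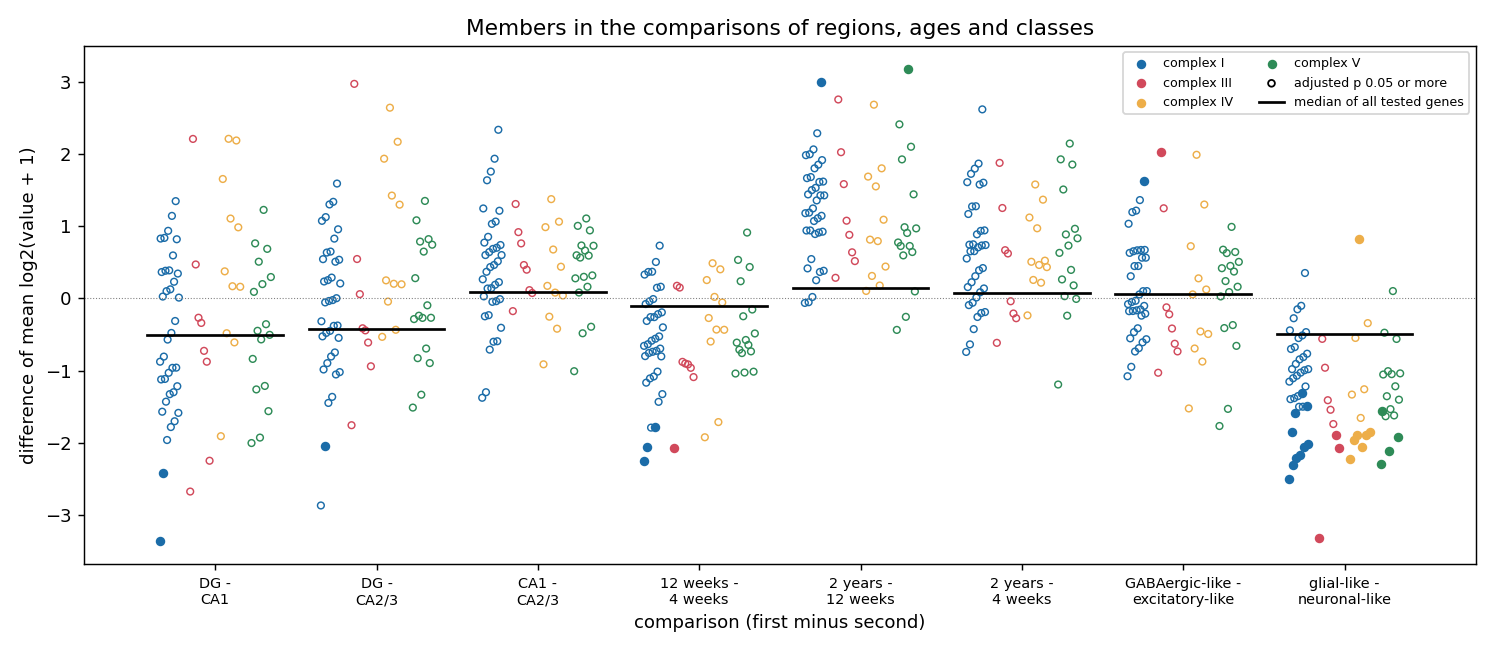
Difference of each tested member in the 3 region, 3 age and 2 class comparisons, on the log2(value + 1) scale, by complex; filled points passed adjusted p 0.05 and black bars are the median of all tested genes. Filled points are few outside the glial comparison, where the 1 above 0 is Cox6b2, which entered that test through glial-like pools alone, and the members as a group lie above the bar for 2 years minus 12 weeks and below it for glial-like minus neuronal-like nuclei.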

How the data were processed

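The authors deposited natural log values of expression on the TPM scale, plus 1, for 25392 genes in 924 nuclei; per the submitters' processing notes Bowtie2 (no version given), RSEM 1.27 and mouse build mm10 (GRCm38) were used. The natural log was read from the spacing of the deposited values, which repeat at ln 2 (2.37 times the neighbouring level over 200 pairs of nuclei) and not at 1 (0.868 times). Taken off the log, the median nucleus summed to 4424383 (2514757 to 21919115), so read depth is unknown and no count test was possible. No 2 nuclei had identical values.

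The members and all gene lists were chosen with earlier results of these data known. Nuclei were clustered with scanpy 1.11.5 and leidenalg 0.10.2 (2000 variable genes, 20 components, 15 neighbours, resolution 1, members and ribosomal genes left out). A cluster took the highest-scoring marker list among those with at least 3 markers detected in 30% of its nuclei. That score had to be positive, and no other list could have more markers among the top 10 genes. No doublet caller was run. Means of log2(value + 1) over the nuclei of a preparation (at least 10 nuclei; 5 for classes) entered limma 3.58.1 in R 4.3.3 with trend, over all genes detected in at least 20% of nuclei of a pool, with Benjamini-Hochberg adjustment and 2-sided p-values. Class comparisons held the preparation as a block. The code was tested on simulated data. Changes of 2 on the log2 scale were recovered in 42% (DG minus CA1), 43% (DG minus CA2/3) and 40% (CA1 minus CA2/3) of changed genes. Recovery was 52% to 61% for the ages, 55% for GABAergic-like and 75% for sorted DG and glial-like comparisons. Few calls therefore need not mean few differences. Of the calls 1.84% to 7.19% were false. 1 gene among the members is counted but not reported here by name. Named members are those called (the 6 largest where over 10 passed in a direction), the 6 highest, and isoform groups, with up to 4 genes of each other list; Atp5b and Ndufb2 beside the sorted calls, and the list of members that missed the threshold there, were added after their values were seen. The plan allowed for values off a TPM scale and for protein sequences; proteins were not used here. Coordinates are from GENCODE vM21 (GRCm38). Alternatives covered the pseudocount, filter, scaling, detected genes, resolution, blocks and each preparation left out.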

Additional observations from a re-analysis of the deposited data

How the results depend on the processing

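Of 178 recomputed counts of members past the threshold 93 were within 1.5 times the value given above and 85 were not, while 28 of 178 member medians changed sign, among them 9 of 20 for DG minus CA2/3 and 5 of 20 for DG minus CA1, but 0 of 19 for sorted DG and 0 of 21 for 2 years minus 12 weeks; of 452 values of single members, 300 kept their call, 142 lost it and 10 turned direction. Counts cover both directions unless one is given, and those of the glial comparison include Cox6b2 where it passed. The share of all genes that passed is not given beside the counts below, which show only how the calls moved. Depth is unknown, so what it limits cannot be stated.

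With the log2 of the mean value in place of the mean of logs, the counts became 0 for DG minus CA1, DG minus CA2/3, 12 weeks minus 4 weeks, 2 years minus 12 weeks, GABAergic-like and glial-like comparisons and 36 for sorted DG, and the medians 0.24 for 2 years minus 12 weeks and -1.33 for sorted DG. A pseudocount of 10 gave 2 (12 weeks minus 4 weeks), 0 (2 years minus 12 weeks) and 1 (GABAergic-like), with a sorted median of -1.52. Without a filter the counts were 0 for DG minus CA2/3, 1, 0, 1 and 10 for 12 weeks minus 4 weeks, 2 years minus 12 weeks, GABAergic-like and glial-like. Quantile normalization gave 5 for DG minus CA1 (3 higher, 2 lower), 2 for DG minus CA2/3 (2 higher), 6 for 2 years minus 12 weeks, 2 for 2 years minus 4 weeks and 3 for glial-like (1 higher, 2 lower), and it took the median of all genes in the glial comparison from -0.49 to 0.04. Rescaling nuclei to an equal total gave 2 for 12 weeks minus 4 weeks and 0 for 2 years minus 12 weeks.

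With detected genes as a covariate the counts were 36 higher, 39 higher, 2 higher, 1 higher, 2 higher, 19 lower and 0 for DG minus CA1, DG minus CA2/3, 12 weeks minus 4 weeks, 2 years minus 12 weeks, 2 years minus 4 weeks, sorted and glial-like, and the medians 2.56, 2.36, 0.16 (12 weeks minus 4 weeks) and 0.31 (glial-like); Cox7a2 (0.57) and Ndufs7 (1.11) turned in the glial comparison. In nuclei with at least 4000 genes the counts were 1 for DG minus CA1, 4 for 2 years minus 12 weeks, 2 for 2 years minus 4 weeks, 1 for GABAergic-like and 0 for glial-like (median 0.70), where Uqcrc1 (1.40), Atp5a1 (2.40), Cox7a2 (1.97) and Ndufs7 (0.89) turned. At resolution 0.6 they were 16 for 2 years minus 12 weeks, 1 for GABAergic-like and 8 for glial-like. There the cluster led by Penk and Col6a1 stayed unnamed, and 12 weeks minus 4 weeks and 2 years minus 4 weeks could not be run. All nuclei gave 2 for DG minus CA2/3 (1 higher, 1 lower) and 0 for 12 weeks minus 4 weeks and for 2 years minus 12 weeks, and sets named DG gave 14 and 11 for the last 2.

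Deviations of same-numbered preparations correlated at -0.17 to 0.41. The highest value was for CA1 with CA2/3, where preparation 1 lay above preparation 3 in 72 of 73 members in both regions. The main fit of CA1 minus CA2/3 did not pair them by number. With the number as a replicate block the counts were 3 for DG minus CA2/3 (2 higher, 1 lower, median 0.35), 0 for 12 weeks minus 4 weeks, 0 for 2 years minus 12 weeks and 35 for sorted DG; without the preparation block of the class comparisons they were 1 for GABAergic-like and 10 for glial-like. Of the settings added after seeing the data, leaving out cluster 5 gave 33 for 12 weeks minus 4 weeks (32 higher, median 1.66), 51 for 2 years minus 4 weeks (3.04) and 1 for GABAergic-like, with Ndufa6 (0.054), Uqcrh (1.25) and Ndufc2 (1.02) turning in the first. That setting left 1 preparation of 10 nuclei at 4 weeks, so its counts against 4 weeks are not read as a result about the members. In sorted DG the GABAergic-like nuclei gave 6 (median -2.89) and cluster 0 gave 0 (-0.26), where Ndufa4 (0.026) turned. The cause of these changes was not tested.

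Leaving out each preparation in turn gave counts and medians of 0 to 7 and -1.73 to 1.20 for DG minus CA1, 0 to 8 and -1.69 to 1.65 for DG minus CA2/3, 0 to 0 and -1.04 to 1.82 for CA1 minus CA2/3, 0 to 11 and -1.0 to 0.11 for 12 weeks minus 4 weeks, 0 to 4 and 0.54 to 1.73 for 2 years minus 12 weeks, 0 to 4 and -0.11 to 1.31 for 2 years minus 4 weeks, 31 to 61 and -2.63 to -1.83 for sorted DG, 1 to 2 and -0.23 to 0.20 for GABAergic-like, and 11 to 32 and -1.47 to -1.06 for glial-like nuclei. An arm left with 1 preparation was assumed to vary like the others.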
